A study of Saccharomyces cerevisiae with 8 samples.

Results

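The genes that finish Okazaki fragments beside RAD27 were followed in budding yeast, Saccharomyces cerevisiae, with and without RAD27. They were the 10 genes DNA2, EXO1, POL3, POL31, POL32, POL30, CDC9, RNH1, RNH201 and PIF1, out of 6692 genes in the deposited count table. The 10 were chosen by name for their roles, with earlier results of these data known. RNA was sequenced from 4 groups of 2 libraries each, a RAD27 knockout at 37 °C, the knockout at 30 °C, wild type at 37 °C and wild type at 30 °C. All cultures grew overnight at 30 °C in YPD, a rich glucose medium, and were then diluted and held for 4 hours at 37 or 30 °C. The labels give no strain name, and they do not say whether the knockout is 1 clone or whether the replicates were separate cultures. The series asked which expression changes accompany faulty maturation of Okazaki fragments.

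Okazaki fragments are the short pieces in which the lagging strand is made. DNA polymerase delta, held on the template by the sliding clamp PCNA, extends each fragment into the one ahead and lifts its RNA primer and first bases into a 5′ flap. The flap is normally cut by the Rad27 nuclease, and ligase then seals the nick. When Rad27 is missing, other nucleases and helicases can process the flap, and the 3′ end can be trimmed by the proofreading exonuclease of polymerase delta.

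RAD27 itself was at 0 counts in all 4 libraries of the knockout, against 511 and 479 counts in wild type at 37 °C and 533 and 531 at 30 °C. Library totals lay between 4734266 and 5588983 counts. CPM are counts scaled to a common library total. In the 4 knockout libraries 3 counts, the limit that a count of 0 allows, are 0.537 to 0.611 CPM (by raw totals, counting error only). All 10 genes passed the filter on low counts, as did 5667 genes of the whole table, and the lowest count of any of the 10 in a library was 141. Replicates differed more than counting error in every group, with a chi-square per degree of freedom of 8.7 in heated and 3.97 in unheated knockout cultures, and of 1.85 in heated and 2.52 in unheated wild type. Levels are CPM after scaling by TMM, a method that sets libraries to a common level over most genes, and are given as mean ± SD over 2 libraries. Fold changes are on the log2 scale with their SE. A gene is said to rise or fall where edgeR's quasi-likelihood test gave a Benjamini-Hochberg adjusted p below 0.05 over all 5667 genes.

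Per length, the clamp gene POL30 stood far above the other genes in all 8 libraries, at 127 to 203 CPM per kb of coding length, with a mean of 165.6. CDC9, for DNA ligase I, followed at a mean of 59.3, with libraries from 45.6 to 73.6 CPM per kb. DNA2, for a nuclease and helicase that cuts long flaps, was lowest at a mean of 19.2 and a range of 17.5 to 21.9. Between these came POL31, EXO1, POL32, PIF1, RNH201, POL3 and RNH1, with means from 53.5 down to 35.1 CPM per kb. Each gene overlapped with the next in this order over the 8 libraries, except POL30 with CDC9 and RNH1 with DNA2. The 3 subunits of polymerase delta had means of 37.3 for the catalytic POL3, 53.5 for POL31 and 41.8 for POL32.

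**Figure D1:**
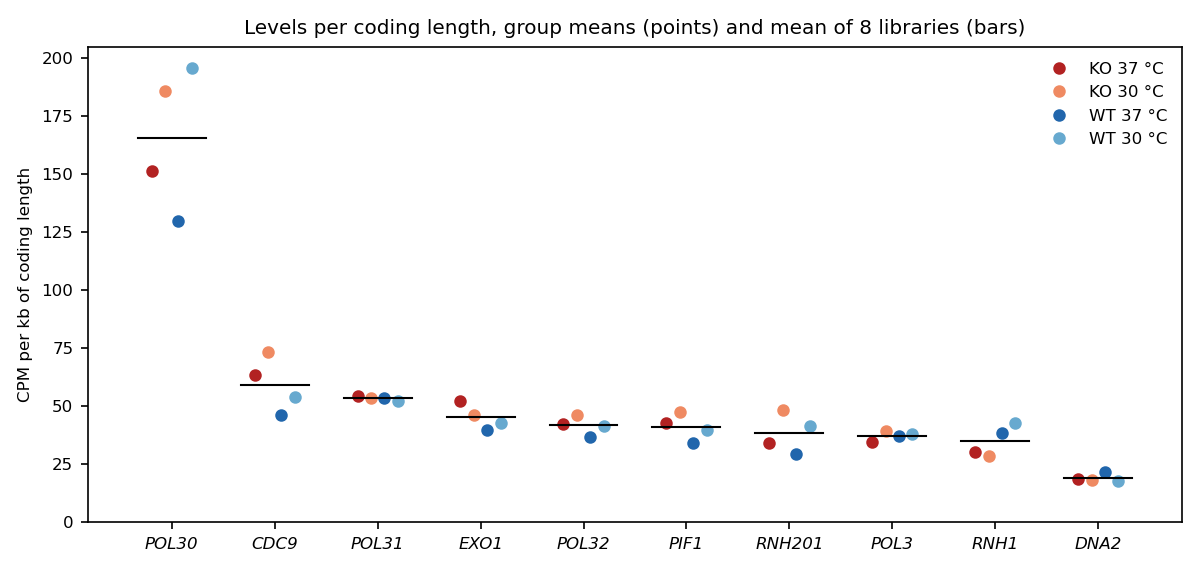
Level per coding length (y axis, CPM per kb) of the 10 genes in order of their mean over 8 libraries (short black line), with the mean of each group of 2 libraries as a point. POL30 lies above all others in every group, from 130 to 196 CPM per kb, and DNA2 lies lowest, from 17.8 to 21.9.

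The sequence ACGCGT, known as the MCB element, is the site of the MBF factor that drives many replication genes late in G1. It is its own reverse complement, so both strands are read at once. In windows from 250 bases before to 50 after the start codon (RefSeq annotation, R64), 5 of the 10 genes hold 1 copy each, against 184 of 6001 protein-coding genes (3.07%). POL30 and CDC9 are the genes with a copy that also passed a test in these data. Their windows are shown, with the element in capitals, as the members that both hold it and changed. POL3, POL31 and POL32 hold the element too and passed no test with TMM scaling. The POL30 window is chrII:425717-426016 and the CDC9 window chrIV:167205-167504, both on the minus strand of R64, with the element starting 195 and 125 bases before the start codon.
POL30: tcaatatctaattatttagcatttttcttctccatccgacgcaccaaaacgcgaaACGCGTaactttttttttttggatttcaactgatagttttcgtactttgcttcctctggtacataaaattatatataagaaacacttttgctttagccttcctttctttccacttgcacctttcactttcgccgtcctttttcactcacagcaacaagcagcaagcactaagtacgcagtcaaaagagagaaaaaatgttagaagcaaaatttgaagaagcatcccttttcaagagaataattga
CDC9: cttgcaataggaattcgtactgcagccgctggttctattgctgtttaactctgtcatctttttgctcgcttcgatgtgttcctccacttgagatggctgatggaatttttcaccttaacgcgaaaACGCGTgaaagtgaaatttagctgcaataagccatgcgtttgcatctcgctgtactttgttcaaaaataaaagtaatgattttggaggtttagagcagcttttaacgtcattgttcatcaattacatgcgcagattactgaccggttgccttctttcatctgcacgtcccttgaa
Of the 10 genes 7 passed in at least 1 of the 5 comparisons described here, beside 83% of all genes tested. They were 2 of the 5 genes with the element and 5 of the 5 without it. The split by the element is a description, and a link between the element and the changes was not tested.

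None of the 3 genes for polymerase delta passed the test in any of 5 comparisons with TMM scaling. POL31 (YJR006W, chromosome X, 449202 to 450665, plus strand), for the essential second subunit, had 76.3 and 82.5 CPM in the heated knockout, 79.3 and 77.6 in the unheated knockout, 80.9 and 75.9 in wild type at 37 °C and 70.9 and 82.6 in wild type at 30 °C. The groups overlapped throughout, and their means on the log2 scale differed by 0.05, less than the pooled SD of 0.09 within groups. POL3 (YDL102W, chromosome IV, 276872 to 280165, plus strand), the polymerase itself, had 108 and 119 CPM in the heated knockout, 132 and 127 in the unheated knockout, 119.9 and 126 in wild type at 37 °C and 133 and 118 in wild type at 30 °C. The heated knockout libraries lay below the unheated knockout and heated wild type, and overlapped with unheated wild type. POL32 (YJR043C, chromosome X, 516461 to 517513, minus strand) is the gene for the small subunit that binds PCNA. At 37 °C it had 47.4 and 42.2 CPM in the knockout and 38.3 and 39.6 in wild type. At 30 °C it had 46.0 and 51.6 CPM in the knockout and 41.5 and 45.8 in wild type. The knockout lay above wild type without overlap at each temperature, by a narrow margin at 30 °C.

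The intervals say how large a change in these genes the data still allow. Knockout against wild type, POL3 differed by 0.04 at 30 °C (95% interval -0.14 to 0.22, a fold of 0.909 to 1.17) and by -0.12 at 37 °C (-0.29 to 0.06). For POL31 the values were 0.03 (-0.17 to 0.23) and 0.02 (-0.18 to 0.22). POL32 was less closely held, at 0.16 (-0.08 to 0.40) at 30 °C and 0.20 (-0.04 to 0.44) at 37 °C. Under heat in the knockout POL3 stood at -0.19 ± 0.08 (adjusted p = 0.0654). It passed there without knockout replicate 2 at 37 °C (-0.26, adjusted p = 0.0235) and with scaling by median of ratios (-0.21, adjusted p = 0.042). With scaling by library size alone POL31 was higher in the heated than in the unheated knockout (0.26, adjusted p = 0.0258), and POL32 was higher in the knockout than in wild type at 37 °C (0.33, adjusted p = 0.0319).

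POL30 (YBR088C, chromosome II, 424990 to 425766, minus strand), for PCNA, was lower in heat. It had 119 and 116 CPM in the knockout at 37 °C, against 131 and 158 in the knockout at 30 °C. Wild type had 98.5 and 103 CPM at 37 °C, against 149.9 and 154 at 30 °C. In both genotypes the heated libraries lay below the unheated ones without overlap. The fall was -0.30 ± 0.09 in the knockout (adjusted p = 0.0109) and -0.59 ± 0.09 in wild type (adjusted p = 0.000311), and the difference of the responses, 0.30 ± 0.13, missed the threshold (adjusted p = 0.0876). With scaling by library size alone the value in the knockout was -0.06 (adjusted p = 0.602), and the difference passed (0.41, adjusted p = 0.0466). The knockout's fall also rests on its replicate 2 at 30 °C, without which it was -0.15 (adjusted p = 0.153) and the difference again passed (0.44, adjusted p = 0.0139). With heat, POL30 averaged 117.6 ± 2.55 CPM in the knockout and 100.8 ± 3.18 in wild type, a difference of 0.22 ± 0.09 just outside the threshold (adjusted p = 0.0503). It passed in 7 of 16 other settings, among them without knockout replicate 1 or 2 at 30 °C. Those libraries are not part of this comparison. Without either of them the difference stayed at 0.22, and only the SE, from the shared spread, changed to 0.07. Without heat the knockout mean of 144 ± 19.4 CPM and the wild type mean of 152 ± 3.18 CPM differed by -0.08 (95% interval -0.27 to 0.11).

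CDC9 (YDL164C, chromosome IV, 164987 to 167254, minus strand), for the ligase that seals the nick, was higher in the knockout at both temperatures. At 37 °C it had 141 and 147 CPM in the knockout and 103 and 107 in wild type. At 30 °C it had 166 and 167 CPM in the knockout and 125 and 119.7 in wild type. Every knockout library lay above every wild type library, whatever the temperature. The rises were 0.45 ± 0.07 at 37 °C (adjusted p = 0.000122, 1.37-fold) and 0.44 ± 0.07 at 30 °C (adjusted p = 0.000581, 1.36-fold), and both passed under each of 16 other settings of the processing. The difference between the temperature responses was 0.01, with a 95% interval of -0.20 to 0.22. Heat itself went with a small decrease, -0.21 ± 0.07 in the knockout (adjusted p = 0.0178) and -0.22 ± 0.07 in wild type (adjusted p = 0.0341). With scaling by library size alone neither passed, at a log2 fold change of 0.030 in the knockout (adjusted p = 0.728), where the sign turned, and -0.09 in wild type (adjusted p = 0.371). The heat call in the knockout was lost without either library at 30 °C (-0.21 and -0.20, adjusted p = 0.0504 and 0.062). That in wild type was lost without any 1 of its 4 libraries (-0.25 to -0.18, adjusted p = 0.0846 to 0.201).

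The enzymes that remove RNA primers went separate ways. RNH1 (YMR234W, chromosome XIII, 740266 to 741312, plus strand), for RNase H1, which degrades RNA paired with DNA, was lower in the knockout. It had 31.7 and 32.2 CPM in the knockout at 37 °C and 41.1 and 39.4 in wild type at 37 °C. At 30 °C it had 27.5 and 32.3 CPM in the knockout and 44.8 in each wild type library. All 4 knockout libraries lay below all 4 of wild type. RNH1 fell by 0.58 on the log2 scale at 30 °C (SE 0.11, adjusted p = 0.00225, 0.667-fold) and by 0.33 at 37 °C (SE 0.11, adjusted p = 0.0196). The call at 30 °C held in all 16 other settings. That at 37 °C did not survive leaving out wild type replicate 1 at that temperature (-0.32, adjusted p = 0.0866). Heat gave 0.10 ± 0.12 in the knockout and -0.15 ± 0.11 in wild type, and neither passed.

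RNH201 (YNL072W, chromosome XIV, 490317 to 491240, plus strand), for the catalytic subunit of RNase H2, which also cuts at single ribonucleotides in DNA, followed temperature. It had 32.6 and 30.9 CPM in the knockout at 37 °C, against 47.2 and 42.5 in the knockout at 30 °C. Wild type had 27.5 and 27.2 CPM at 37 °C, against 39.9 and 36.5 at 30 °C. The heated libraries of both genotypes lay below all unheated ones. The fall was -0.50 ± 0.11 in the knockout (adjusted p = 0.00161) and -0.48 ± 0.12 in wild type (adjusted p = 0.00731), and the difference of the responses was -0.02 (95% interval -0.37 to 0.33). With scaling by library size alone the value in the knockout was -0.26 and did not pass (adjusted p = 0.0551). The fall in wild type was -0.42 without replicate 1 at 30 °C and did not pass (adjusted p = 0.0669). In the knockout against wild type RNH201 did not pass (0.21 ± 0.12 at 37 °C, adjusted p = 0.134, and 0.23 ± 0.11 at 30 °C, adjusted p = 0.128), except at 37 °C with library size alone (0.34, adjusted p = 0.0274).

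EXO1 and DNA2, for nucleases that can act on flaps in place of Rad27, went opposite ways between genotypes under heat. In that comparison 59.8% of all genes passed. EXO1 (YOR033C, chromosome XV, 392416 to 394524, minus strand), for a 5′ exonuclease of the same family as Rad27, had 104.9 and 116 CPM in the knockout at 37 °C, against 89.4 and 77.6 in wild type at 37 °C. At 30 °C it had 95.9 and 98.9 CPM in the knockout and 90.3 and 90.4 in wild type. All 4 knockout libraries lay above the highest of wild type. EXO1 rose by 0.41 ± 0.09 at 37 °C (adjusted p = 0.00154, 1.32-fold), a call kept in 16 of 16 other settings, and stood at 0.11 ± 0.09 at 30 °C (adjusted p = 0.398). The difference of the temperature responses was 0.30 ± 0.13 and missed the threshold (adjusted p = 0.0864), and it passed without knockout replicate 1 at 37 °C (0.34, adjusted p = 0.0326). Heat in the knockout gave 0.18 ± 0.09 (adjusted p = 0.0851), which also passed without that library (0.24, adjusted p = 0.0327).

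DNA2 (YHR164C, chromosome VIII, 424610 to 429178, minus strand) was highest in heated wild type. It had 89.9 and 81.5 CPM in the heated knockout, 83.0 and 83.5 in the unheated knockout, 100.05 and 99.6 in wild type at 37 °C and 79.8 and 82.8 in wild type at 30 °C. The 2 heated wild type libraries lay above all others, which spanned 79.8 to 89.9 CPM. DNA2 rose with heat in wild type (0.30 ± 0.08, adjusted p = 0.0135) and stood at 0.04 ± 0.08 in the knockout (adjusted p = 0.689), and the difference of -0.26 ± 0.11 did not pass (adjusted p = 0.101). At 37 °C it was lower in the knockout than in wild type (-0.22 ± 0.08, adjusted p = 0.0272). These results depend on the scaling. By library size alone DNA2 also rose with heat in the knockout (0.28, adjusted p = 0.0111). The genotypes at 37 °C then differed by -0.10 (adjusted p = 0.331), and the responses by -0.14 (adjusted p = 0.382). The rise in wild type was lost without any 1 of the 4 wild type libraries (0.27 to 0.32, adjusted p = 0.0568 to 0.0922). The fall at 37 °C no longer passed without either heated wild type library (-0.24 in each case, adjusted p = 0.0797 and 0.0745) or knockout replicate 2 at 37 °C (-0.17, adjusted p = 0.141). Without knockout replicate 1 at 37 °C the difference of the responses passed (-0.35, adjusted p = 0.0266).

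PIF1 (YML061C, chromosome XIII, 148953 to 151532, minus strand), for a helicase of nucleus and mitochondria that helps polymerase delta to lengthen flaps, was higher in the heated knockout than in heated wild type. It had 112 and 108 CPM in the knockout at 37 °C and 91.5 and 85.9 in wild type at 37 °C. At 30 °C it had 112 and 134 CPM in the knockout and 110.4 and 93.9 in wild type. The groups did not overlap at either temperature, although the wild type library with 110.4 CPM came close to the knockout at 30 °C. The rise at 37 °C was 0.31 ± 0.10 (adjusted p = 0.017) and no longer passed without either heated wild type library (0.34 and 0.25, adjusted p = 0.0617 and 0.154). At 30 °C the value was 0.27 ± 0.10 (adjusted p = 0.0595). It passed there without wild type replicate 1 at 30 °C (0.39), without knockout replicate 1 at 30 °C (0.40), or without either heated knockout library (0.27). The heated knockout libraries are not part of this comparison. Leaving 1 of them out kept the value and changed only the SE, to 0.09. Heat in the knockout gave -0.16 ± 0.10 (adjusted p = 0.182), which passed without knockout replicate 1 at 30 °C (-0.28, adjusted p = 0.046).

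**Figure D2:**
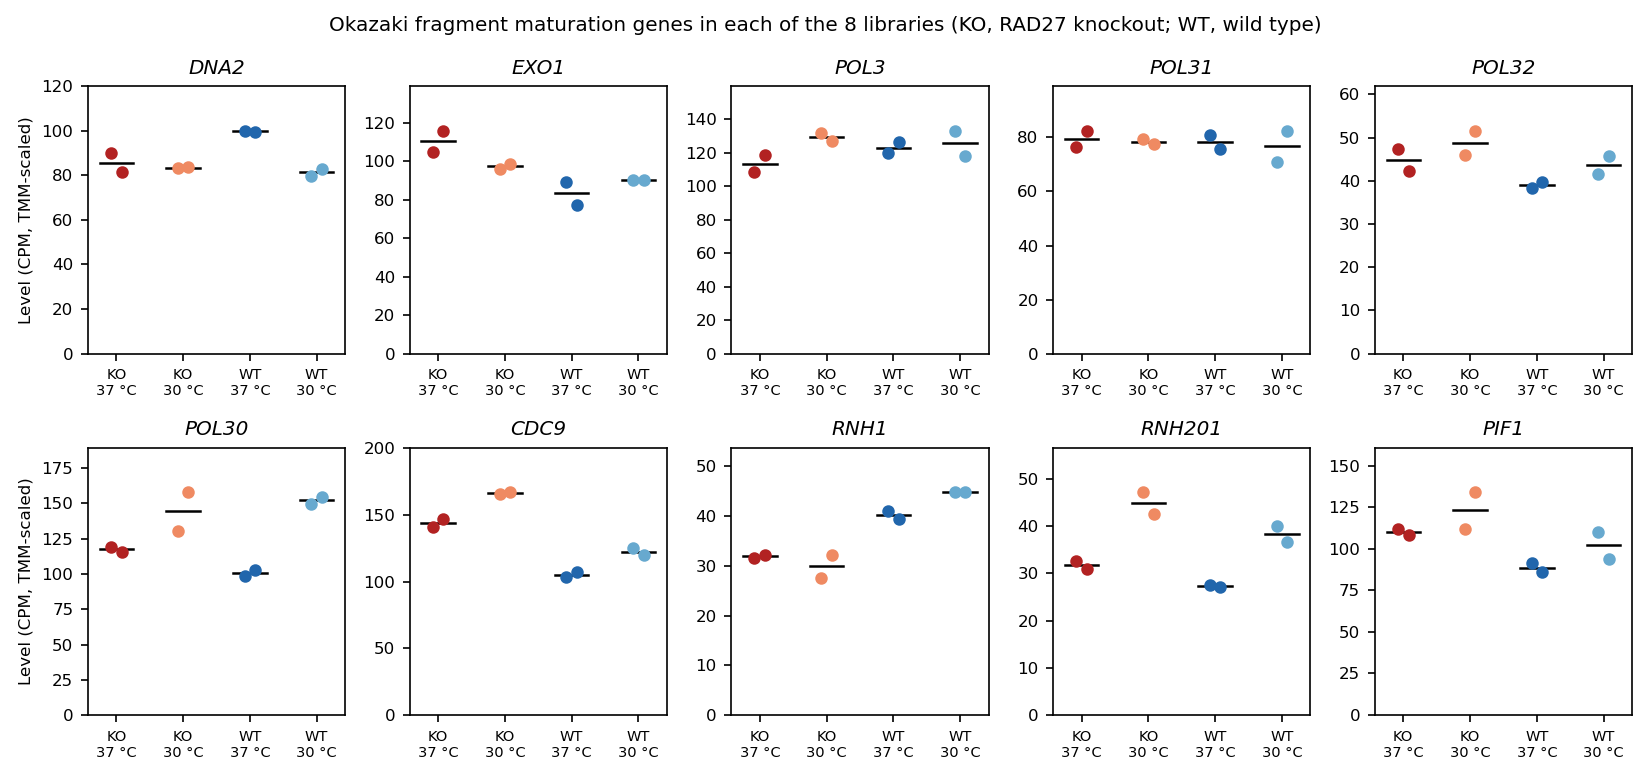
TMM-scaled level (y axis, CPM, from 0) of each of the 10 genes in every library, 2 points per group with the group mean as a line, for RAD27 knockout (KO) and wild type (WT) at 37 and 30 °C. CDC9 lies at 141 to 167 CPM in the knockout and 103 to 125 in wild type, RNH1 at 27.5 to 32.3 in the knockout and 39.4 to 44.8 in wild type, and the 4 groups of POL31 overlap.

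Counted together, the 10 genes gave 14 calls over these comparisons. In the heated against the unheated knockout 0 rose and 3 fell (POL30, CDC9 and RNH201), where 59.1% of all genes tested passed, 30.9% higher and 28.2% lower. In heated against unheated wild type 1 rose (DNA2) and 3 fell (POL30, CDC9 and RNH201), where 32.8% passed, 15.7% higher and 17.1% lower. In the knockout against wild type at 37 °C 3 rose (EXO1, CDC9 and PIF1) and 2 fell (DNA2 and RNH1), where 59.8% passed, 30.5% higher and 29.2% lower. At 30 °C 1 rose (CDC9) and 1 fell (RNH1), where 29.6% passed, 14.6% higher and 15% lower. Against these shares, the counts of the 10 genes lie near the background in wild type under heat and in both genotype comparisons, and below it in the heated knockout. DESeq2 called fewer, POL30 and RNH201 in the heated knockout and POL30 in heated wild type. In the knockout against wild type it called EXO1 and CDC9 at 37 °C, and CDC9 and RNH1 at 30 °C. Of all genes DESeq2 called 2652, 1264, 2680 and 1075 in that order, where edgeR called 3347, 1858, 3387 and 1680. The libraries of the groups did not overlap for 5 of the 10 genes in the heated against the unheated knockout (79.3% of all genes), for 8 in heated against unheated wild type (71.2%), for 9 in the knockout against wild type at 37 °C (80.6%) and for 7 at 30 °C (67.9%). These comparisons share libraries with each other, so their counts are not independent. The median log2 fold change of the 10 genes was -0.14, -0.16, 0.21 and 0.07 in that order, beside 0.04, 0.01, 0.01 and -0.003 for all genes. The highest and the lowest group mean of a gene lay 0.44 apart on the log2 scale in the median of the 10 genes, and 0.58 apart over all genes. The largest change of the 10 genes in the 4 comparisons was that of POL30 in heated wild type (-0.59).

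The 5th comparison was the difference between the temperature responses of knockout and wild type. It passed for 0 of the 10 genes by edgeR's quasi-likelihood test and for 0 by DESeq2. Of all genes 33.6% passed by edgeR, 16.4% higher and 17.2% lower, which is 1902 genes, and 1359 passed by DESeq2. At an unadjusted edgeR p below 0.05 the count of the 10 genes was 3 (DNA2, EXO1 and POL30). With scaling by library size alone 2 passed, EXO1 and POL30, both with a positive difference. Scaling mattered more in the heated knockout. There, library size alone shifted the median gene by 0.24 (log2). Against the unheated knockout 4 of the 10 genes then rose (DNA2, EXO1, POL31 and RNH1) and 0 fell, in place of 0 and 3. Against heated wild type, where the median moved by 0.13, 6 rose and 0 fell, in place of 3 and 2. The values of DNA2 and RNH1 there were then -0.10 and -0.21 (adjusted p = 0.331 and 0.154). Over all genes, the same change of scaling gave 2803 higher and 842 lower in place of 1751 and 1596 for heat in the knockout, and 1497 and 596 in place of 891 and 967 for heat in wild type. It gave 2182 and 1123 in place of 1731 and 1656 for the genotypes at 37 °C, and 1197 and 604 in place of 930 and 972 for the difference of the responses.

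**Figure D3:**
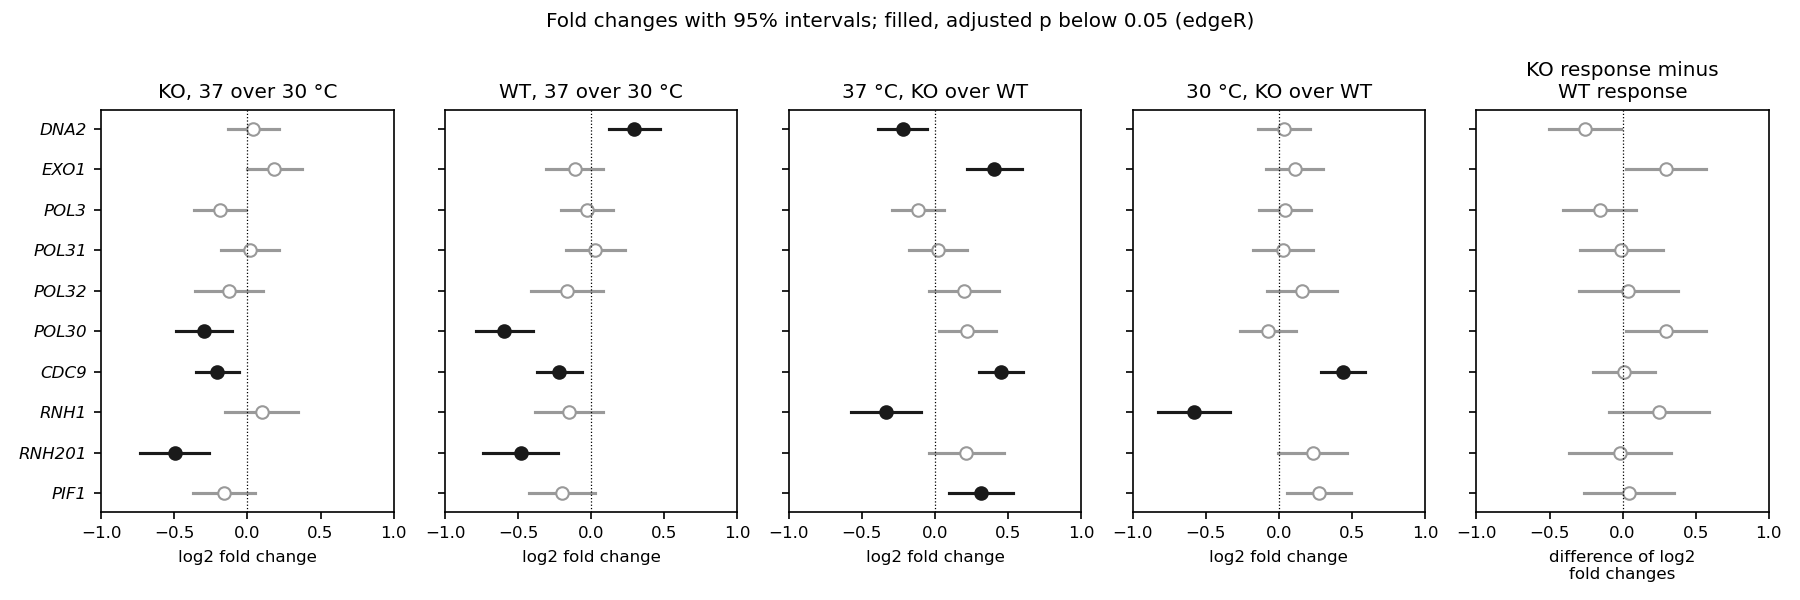
Log2 fold change of each gene (x axis) with its 95% interval in the 4 comparisons and, at the right, the difference between the temperature responses. Filled points passed at an adjusted p below 0.05 (edgeR). RNH1 and CDC9 stand on opposite sides of 0 in the knockout over wild type at both temperatures (-0.33 and 0.45 at 37 °C), and no difference at the right is filled.

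Of 29 other genes of lagging strand synthesis and fork support, in 7 groups, 9 rose and 4 fell in the knockout against wild type at 37 °C, where 59.8% of all genes passed, and 7 rose and 0 fell at 30 °C, where 29.6% passed. All 3 genes for RPA, the complex that coats single-stranded DNA and long flaps, rose at 37 °C, RFA1 by 0.75 ± 0.08 (adjusted p = 4.56e-06). DPB2, for a subunit of polymerase epsilon, rose by 0.74 ± 0.10, while POL2, for its catalytic subunit and named after its values were seen, fell (-0.53 ± 0.08, adjusted p = 7.62e-05). At 30 °C 2 of the RPA genes rose, RFA1 by 0.47 ± 0.08 and RFA2 by 0.63 ± 0.09. PRI2, for the large subunit of primase, showed the largest rise of the 29 at 37 °C (0.80 ± 0.11, adjusted p = 5.88e-05). Of the 5 subunits of the clamp loader RFC, which places PCNA on DNA, 0 rose and 2 fell at 37 °C (3 and 0 with scaling by library size alone) and 1 rose and 0 fell at 30 °C. Under heat 3 of the 29 rose and 9 fell in the knockout, and 2 rose and 5 fell in wild type, where 59.1% and 32.8% of all genes passed. With library size alone these counts turned to 10 and 1 in the knockout and 5 and 2 in wild type, and the count between genotypes at 37 °C to 16 and 2, while that at 30 °C stayed at 7 and 0. With TMM scaling, the largest heat changes of the 29 in the knockout were the rise of SRS2 and the fall of RFC1. SRS2, for a helicase that limits recombination, stood at 0.58 ± 0.08 (adjusted p = 3.64e-05). RFC1, for the large clamp loader subunit, stood at -0.50 ± 0.08 (adjusted p = 8.98e-05). In wild type the largest were the fall of PRI2 (-0.58 ± 0.12, adjusted p = 0.00214) and the rise of SGS1, for the RecQ helicase (0.50 ± 0.07, adjusted p = 0.000168). In the difference of the responses 1 of the 29 was higher and 3 were lower, with RFC5 at 0.41 ± 0.14 (adjusted p = 0.0326) and RFC1 at -0.40 ± 0.11 (adjusted p = 0.0119), and with library size alone 6 were higher and 0 lower.

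Damage-induced genes, histone genes and G1/S genes also moved in the same libraries. The 3 lists below were chosen with earlier results of these data known. Their counts stand beside the shares of all genes that passed between genotypes. These were 59.8% at 37 °C (30.5% higher, 29.2% lower) and 29.6% at 30 °C (14.6% higher, 15% lower). The 6 DNA damage-induced genes listed, RNR2, RNR3, RNR4, HUG1, DUN1 and PLM2, all rose in the knockout against wild type at both temperatures, with a median of 2.79 at 37 °C and 1.56 at 30 °C. Their summed level was 6939 to 7841 CPM in the knockout at 37 °C, 3248 to 3687 in the knockout at 30 °C, 1234 to 1239 in wild type at 37 °C and 1208 to 1361 in wild type at 30 °C. Of 9 histone genes, transcribed in S phase, 8 fell and 1 rose in the knockout at 37 °C and 7 fell and 0 rose at 30 °C. Their sum was 1971 to 1994 CPM in the knockout at 37 °C, 3018 to 3571 in the knockout at 30 °C, 3452 to 3643 in wild type at 37 °C and 4254 to 4524 in wild type at 30 °C. Of 11 G1/S genes of the kind driven by MBF, among them POL1, POL2 and RFA1 of the other lists, 7 rose and 1 fell in the knockout at 37 °C and 5 rose and 0 fell at 30 °C. They summed to 1547 to 1894 CPM in the knockout at 37 °C, 2264 to 2309 in the knockout at 30 °C, 1397 to 1419 in wild type at 37 °C and 1581 to 1780.3 in wild type at 30 °C. A large part of each sum was RNR1 alone, at 773 ± 207, 1194 ± 66.6, 531 ± 18.6 and 697 ± 49.1 CPM in the same order. The part of these shifts in the values of the 10 genes was not tested. With library size alone the counts between genotypes were the same for these 3 lists. In RNA from whole cultures fewer cells in a phase and less RNA per cell cannot be told apart.

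**Figure D4:**
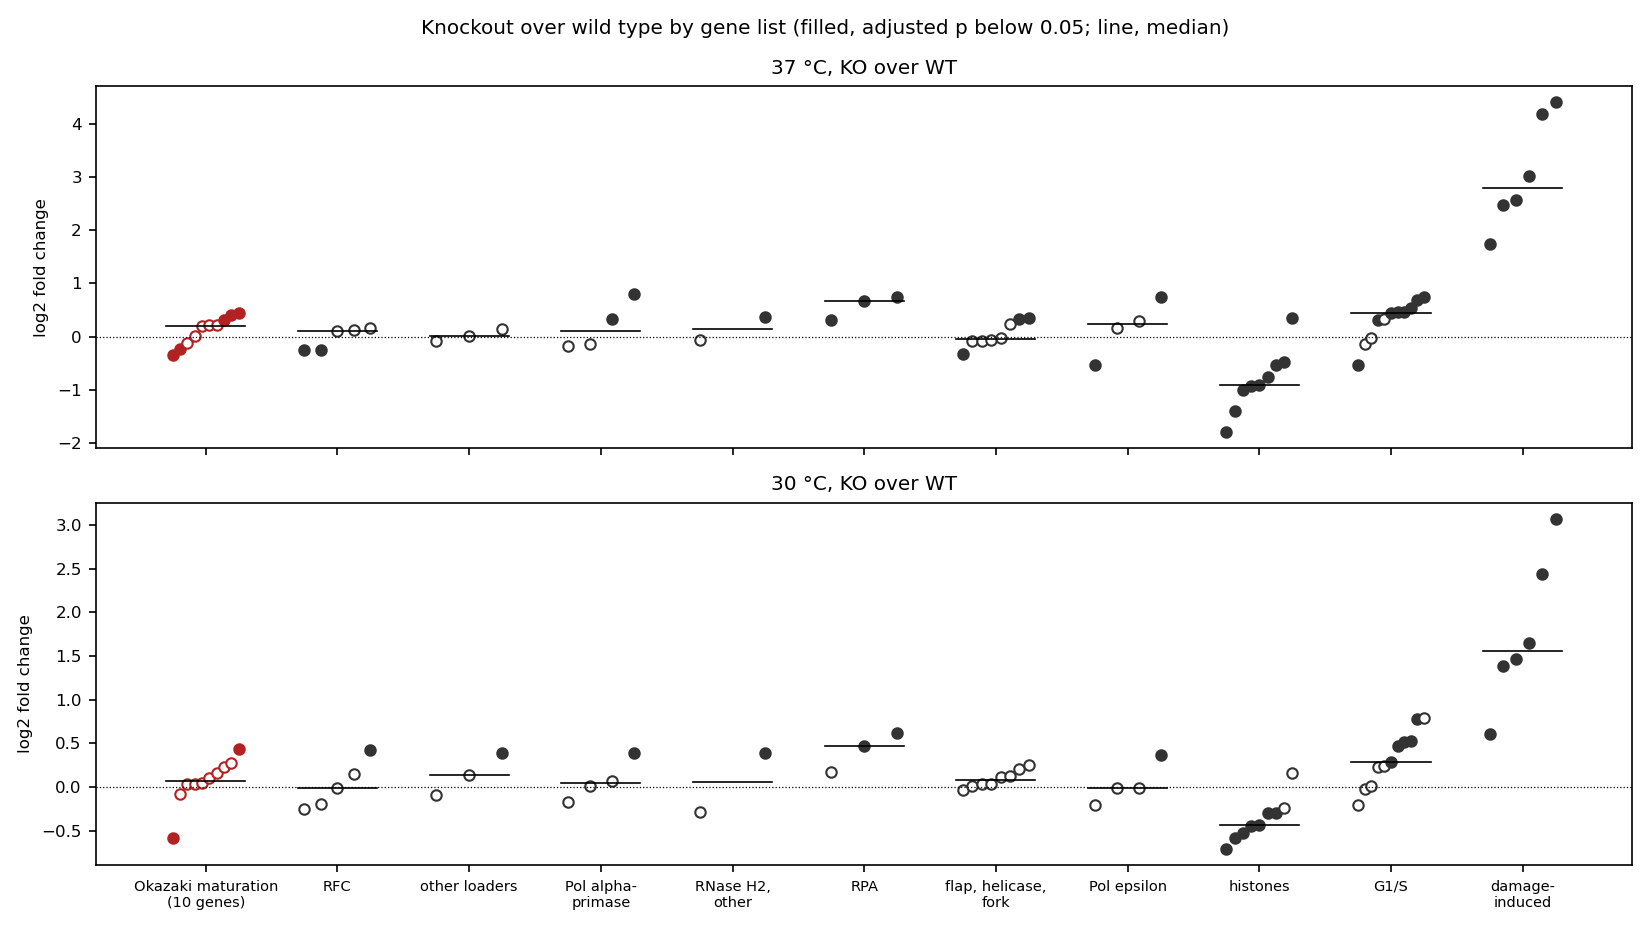
Log2 fold change (y axis) of single genes in the knockout over wild type at 37 °C (upper panel) and 30 °C (lower panel), by list, with the 10 Okazaki fragment maturation genes in red, filled points passing at an adjusted p below 0.05 and a line at each list's median. The 10 genes lie between -0.58 and 0.45 in both panels, and the 6 damage-induced genes between 0.60 and 4.40.

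RNH201, CDC9 and POL30 showed the widest spread of group means among the 10 genes, 0.70, 0.66 and 0.59 on the log2 scale. Genes with the most similar course were sought among 5126 others with a mean of at least 10 CPM, by the root mean square difference of log2 levels over the 8 libraries after centring each gene, a measure whose median over all genes was 0.33 to 0.35. The nearest of so many genes lie below that median by the search itself. For CDC9 they were RSR1 (0.033), ERG4 (0.036) and SMF3 (0.057). For RNH201 they were POB3 (0.066), HST4 (0.075) and MDY2 (0.076), and for POL30 DLD2 (0.058), RHO1 (0.061) and SCW10 (0.075). ERG4, as an example, had 496.5 CPM in the knockout at 37 °C, 564 in the knockout at 30 °C, 375 in wild type at 37 °C and 429 in wild type at 30 °C.

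Each of the 10 genes is a single exon with no annotated gene overlapping it and no similar copy elsewhere in R64 by blastn. Open reading frames on the other strand that are in the count table and absent from the RefSeq annotation held few counts. YBR089W, the number next to POL30, held 14 counts over the 8 libraries against 5327 for POL30. YDL163W, next to CDC9, held 1 against 5624. The strand setting of the counting is not given. Low counts therefore cannot show whether reads shared with such a frame were left out of both. The levels of POL30 and CDC9 may miss such reads.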

How the data were processed

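RNA of 8 yeast libraries, made with the Kapa mRNA HyperPrep kit per the labels' protocols, was deposited as raw counts per gene. Per the submitters' processing notes, the authors used STAR and HTSeq, and R64 and sacCer3 are the builds named. For tool versions, strand setting and multiply mapped reads, the sources used here say nothing. The genome sequencing of the series was not analysed here. Systematic names matched the R64 RefSeq annotation for 6008 of 6692 genes, and the other 684 held 0.164% of counts. Sequences, positions and coding lengths are from that RefSeq assembly.

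The quasi-likelihood F test of edgeR 4.0.16 (R 4.3.3) was run on these deposited counts of all 8 libraries, with 1 coefficient per group, TMM scaling and filterByExpr (minimum count 10, minimum total 15). The spread is shared by the 4 groups (4 residual degrees of freedom, biological coefficient of variation 6.19%), and p-values measure only the spread between these samples, which may be technical. The SE is the absolute log2 fold change over the square root of F, and 95% intervals use the test's degrees of freedom. Alternatives were other scalings and filters, the older quasi-likelihood form, replicate blocks, a fit to only the 4 libraries compared, leaving out every library once, and DESeq2 1.42.0. The effect of scaling on the other gene lists was examined after seeing the data. With 1 library left in a group, it is assumed to vary like the others.

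All 10 genes are named. Other pathway genes are named where they had the largest changes past the threshold, up to 3 per comparison. One gene of the damage and G1/S lists is not reported here and was left out of both. The 10 genes and the lists were chosen with earlier results of these data known. Copies were searched with blastn 2.17.0. Figures were drawn with matplotlib 3.10.9.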

Additional observations from a re-analysis of the deposited data

How the results depend on the processing

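Over 17 alternative settings the 10 genes gave 820 values. Of 14 calls, 5 held in every setting run: POL30 in heated wild type, CDC9 and RNH1 in the knockout at 30 °C, and CDC9 and EXO1 in the knockout at 37 °C. Of 36 values that did not pass, 23 passed in no setting. The 1 call that changed sign was CDC9 in the heated against the unheated knockout, 0.030 with scaling by library size alone, which moves the median of all genes there by 0.24. A further 46 values, called in neither fit, changed sign, and the largest of these reached 0.11. With library size alone the difference between the responses passed for 2 of the 10 genes in place of 0. DESeq2 called 1 of the 10 genes in place of 4 in heated wild type, and 2 in place of 5 in the knockout at 37 °C. Over all genes it called 1264 in place of 1858 and 2680 in place of 3387 there. In the knockout at 30 °C it called 1075 of all genes in place of 1680. The cause was not tested. Leaving out 1 library gave 1 to 4 of the 10 genes for heat in the knockout, 1 to 4 for heat in wild type, 2 to 3 for the knockout at 30 °C, 2 to 6 for the knockout at 37 °C and 0 to 2 for the difference. For all genes it gave 1048 to 2266 for heat in wild type and 975 to 2161 for the knockout at 30 °C. Deviations of same-numbered libraries correlated at -0.11 to 0.11 between groups, so the numbers were not taken to pair samples. A replicate block over all groups added POL30 in the knockout at 37 °C (0.22, adjusted p = 0.0379), for 6 of the 10 genes, and gave 3, 4, 2 and 0 for heat in the knockout, heat in wild type, the knockout at 30 °C and the difference. Depth limits RNH1 and RNH201 most, with 141 to 217 and 144 to 242 counts per library.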

Other observations

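POL3 lies tail to tail with DUN1, the gene of a checkpoint kinase of the DNA damage response, with 141 bases between their annotated coding ends on chromosome IV. DUN1 averaged 84.9 ± 0.05 CPM in the knockout at 37 °C, 60.6 ± 5.78 in the knockout at 30 °C, 25.3 ± 2.87 in wild type at 37 °C and 39.9 ± 0.37 in wild type at 30 °C (SD, n = 2 each). POL3 averaged 113.4 ± 7.37, 129.2 ± 3.41, 123.0 ± 4.31 and 125.6 ± 10.7 CPM in the same order. The difference between the temperature responses of knockout and wild type was 1.14 ± 0.16 for DUN1 (edgeR adjusted p = 0.000214) and -0.16 ± 0.12 for POL3 (adjusted p = 0.32). Whether the kit's strand information was used in counting is not given in the sources used here.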
